A study of Homo sapiens with 4 samples.

Results

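The 35 genes described here encode aminoacyl-tRNA synthetases, the enzymes that join each amino acid to its tRNA. They were taken from a list of names and matched to the gene identifiers of the deposited tables, under their older symbols where needed (AARS for AARS1), and all 35 of the list were found among 60683 identifiers. Of them 19 act in the cytosol and 16, with names ending in 2, act in mitochondria. PolyA RNA was sequenced in 4 libraries from HCT116, a human cell line established from a colorectal carcinoma. In 2 libraries (empty vector) the cells had received the pSin lentivirus without an insert, and in 2 (FOXD2) the same virus with the whole reading frame of the forkhead transcription factor FOXD2. Both groups carried puromycin resistance and were kept in 5 μg/ml puromycin, and whether each group is a pool of transduced cells or a clone is not given in the sources used here.

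The synthetases fall into class I and class II, which differ in the fold of their catalytic domain. In the cytosol several of them sit with scaffold proteins in a multisynthetase complex, while the others work free. When amino acids run short or protein folding is disturbed, kinases phosphorylate the initiation factor eIF2, and the transcription factor ATF4 is then made and switches on genes for amino acid synthesis, amino acid uptake and many of the cytosolic synthetases. Mitochondrial synthetases are made from nuclear genes, are imported, and charge the tRNAs that read the few mRNAs of mitochondrial DNA.

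The binding site through which ATF4 with a C/EBP partner acts, TGATGNAAN, was searched on both strands of RefSeq promoter sequences on GRCh38.p14, each running from 250 bases before to 50 after a start. Promoter sequences were at hand for 30 of the 35 genes, namely 16 cytosolic and 14 mitochondrial ones. The site was present for 7 of the 16 cytosolic genes and for 1 of the 14 mitochondrial genes, YARS2. It was present in 3.61% of all 35116 promoter sequences, and for 4.45% of genes when any of a gene's starts was counted. The 8 sites are shown because every gene that held one was lower in FOXD2 cells, as described further on. Each line gives 30 bases on GRCh38, 5′ to 3′ on the strand that reads as the motif, with the 9 bases of the site in capitals.
AARS1, chr16:70289676-70289705, plus strand: ctaacttggcTGATGCAACtgcgagaaaag
CARS1, chr11:3057408-3057437, plus strand: tcctagaatcTGATGCAACcgccgccccgg
GARS1, chr7:30594833-30594862, minus strand: gctcggagcaTGATGAAATcgccgcgtaaa
IARS1, chr9:92293693-92293722, plus strand: cgcacggaggTGATGCAACgcgctgaaaat
MARS1, chr12:57488052-57488081, minus strand: aatccctcgcTGATGCAACcggaaccggcc
NARS1, chr18:57621804-57621833, minus strand: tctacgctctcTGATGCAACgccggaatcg
TARS1, chr5:33440955-33440984, minus strand: ctggaccagcTGATGCAATcgaaaggcgcc
YARS2, chr12:32756076-32756105, minus strand: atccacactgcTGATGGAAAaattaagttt

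In 5 of these 8 genes, out of 30 searched, the site read TGATGCAAC, its most frequent form among them. That form was present in 0.216% of all promoter sequences. It was picked from these same genes, so setting these shares side by side is no test. In 6 of the cytosolic genes the site lay on the strand opposite to the gene and in NARS1 on the gene's own strand. It lay across or close to the start in CARS1 (from 3 bases before to 6 after), MARS1, IARS1, GARS1, TARS1 and NARS1. In AARS1 and YARS2 it lay further out, from 188 to 180 and from 197 to 189 bases before the start. For these 2 genes the stretch upstream of the whole gene model is given on the minus strand, which is the gene's strand in both, with the site in capitals.
AARS1, chr16:70289544-70289756: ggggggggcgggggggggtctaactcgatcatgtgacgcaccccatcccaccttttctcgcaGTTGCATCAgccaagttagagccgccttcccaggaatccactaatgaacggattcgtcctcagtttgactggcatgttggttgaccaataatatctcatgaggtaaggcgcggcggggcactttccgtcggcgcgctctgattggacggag
YARS2, chr12:32755903-32756147: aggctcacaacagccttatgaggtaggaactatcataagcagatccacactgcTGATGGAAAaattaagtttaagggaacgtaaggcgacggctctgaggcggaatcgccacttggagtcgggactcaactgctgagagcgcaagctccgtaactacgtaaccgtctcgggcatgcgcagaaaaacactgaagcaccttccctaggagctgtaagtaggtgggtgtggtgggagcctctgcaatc

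Each library held 14231338 to 15535817 counts over genes, and the smallest count of any synthetase in any library was 101. The FOXD2 gene itself had 49 and 42 counts with empty vector and 8195 and 7011 counts in FOXD2 cells, so each library matched its label. The epithelial markers EPCAM, KRT8, KRT18 and CDH1 and the intestinal factor CDX2 were detected in all libraries, while the brush border gene VIL1 had 0 to 6 counts. The summed level of these 6 markers was 3004 and 3032 TPM (a level scaled for transcript length and for depth) in empty vector cells and 5446 and 5288 in FOXD2 cells, mostly from the keratins, while CDX2 fell (16.2 and 18.9 against 11.4 and 13.4 CPM, a level relative to library size, log2 fold change -0.51, edgeR adjusted p = 0.0010). Of 4 blood markers, PTPRC, CD3E and HBB had 0 counts in all libraries. Of 6 fibroblast markers DCN, LUM and COL1A2 had 0, and the summed counts of that list, nearly all of COL1A1, were 133 and 169 in empty vector cells and 501 and 489 in FOXD2 cells. The sums of both lists moved with the groups, and their part in the results was not tested. Of 3 endothelial markers the summed counts were 7 to 23 per library. In such bulk libraries fewer cells of a kind and less RNA per cell cannot be told apart.

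Most synthetase mRNAs were lower in FOXD2 cells, and the cytosolic ones in particular made up a smaller part of the mRNA. Summed over the 19 cytosolic genes, the level was 2815 and 2901 TPM with empty vector and 2126 and 2039 TPM with FOXD2, a difference of -27.1% between the means. Summed over the 16 mitochondrial genes it was 407 and 399 against 341 and 348 TPM, a difference of -14.4%. Neither sum overlapped between groups. The CPM of the groups did not overlap, with FOXD2 lower, for 17 of 19 cytosolic and 9 of 16 mitochondrial genes (37.2% of all tested genes), and, with FOXD2 higher, for 1 and 5 genes (38.9%). By the quasi-likelihood test of edgeR, with p-values adjusted over all 14470 genes tested, 15 of 19 cytosolic genes fell, 1 rose and 3 did not pass an adjusted p of 0.05. The threshold was passed by 53.5% of all tested genes, 27.2% being higher and 26.4% lower, so a single call carries little weight here, while 15 of 19 lower stands beside that 26.4%. The median log2 fold change of the cytosolic genes was -0.54, that of all tested genes 0.01. A fall of at least 1.5-fold was found for 9 of 19 cytosolic genes, against 7.81% of tested genes, and a rise of that size for 0 of 19, against 14.9%.

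**Figure D1:**
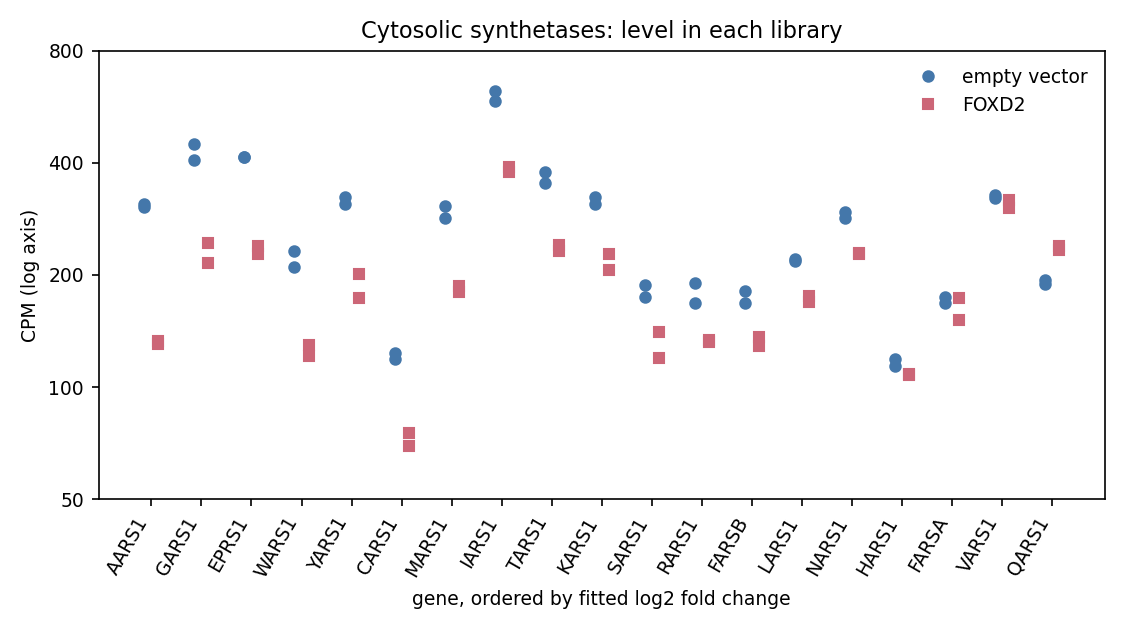
Level of each cytosolic synthetase gene in CPM (log axis) in every library. Points are single libraries, circles for the 2 empty vector and squares for the 2 FOXD2 libraries, and genes are ordered by fitted fold change. From AARS1 to HARS1 and for VARS1 both squares lie below both circles, for FARSA the groups overlap, and for QARS1 at the right end both squares lie above both circles.

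AARS1, the alanyl-tRNA synthetase (chr16:70252295-70289543, minus strand, GRCh38), showed the largest change of all 35 genes. It was at 305 and 311 CPM with empty vector and at 133 and 130.4 CPM with FOXD2. Both FOXD2 libraries were thus below both empty vector libraries, and replicates lay close together. The mean went from 307.6 ± 4.38 to 131.6 ± 1.75 CPM (SD, n = 2 libraries per group, as for every ± that follows). On the log2 scale the fitted change was -1.22 (SE 0.06, adjusted p = 1.3e-24 by edgeR). AARS1 and YARS2 are the members with the ATF4 site upstream of the whole gene model, shown above.

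GARS1, the glycyl-tRNA synthetase, serves both compartments from a single gene (chr7:30594681-30634033, plus strand) and was the most abundant member in empty vector cells at 307 TPM. It was at 406 and 449 CPM with empty vector and at 243 and 215 CPM with FOXD2. The groups were well apart although each varied more than for AARS1, and the log2 fold change was -0.90 (SE 0.06, edgeR adjusted p = 5.8e-16). In FOXD2 cells GARS1 was at 159.6 TPM and ranked behind QARS1 and TARS1. KARS1, the lysyl-tRNA synthetase, is the other gene shared by cytosol and mitochondria. It was at 309 and 323 CPM against 228 and 207 CPM (-0.54, SE 0.06), lower in both FOXD2 libraries. Its fitted fold was under 1.5, but over it without FOXD2 replicate 1 (-0.62).

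EPRS1 joins glutamyl- and prolyl-tRNA synthetase in a single protein, which combines a class I and a class II enzyme and belongs to the multisynthetase complex. It was at 414 and 415 CPM in empty vector cells and at 239 and 228 CPM in FOXD2 cells (log2 fold change -0.83, SE 0.06). WARS1, the tryptophanyl enzyme, which is also known as an interferon-induced gene, was at 210.4 and 232 CPM against 129 and 121 CPM (-0.82, SE 0.06). YARS1, the tyrosyl enzyme, was at 310.3 and 325 CPM against 201 and 174 CPM (-0.76, SE 0.06). For all of these the groups were separate.

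CARS1, the cysteinyl enzyme, was the least abundant of the cytosolic genes that fell by 1.5-fold or more, at 119 and 124 CPM against 75.4 and 69.4 CPM (log2 fold change -0.75, SE 0.07). MARS1, the methionyl enzyme, was at 285 and 307 CPM against 187 and 180.3 CPM (-0.69, SE 0.06). In TPM its change was smaller, -0.42 by limma on log2(TPM + 1), as the transcript length that RSEM assigned to the gene was 2220 and 2168 bases in empty vector cells and 1857 and 1933 bases in FOXD2 cells. MARS1 (chr12:57475445-57517569, plus strand) overlaps 2 protein-coding genes on the opposite strand, ARHGAP9 by 13370 bases and DDIT3, the gene of the stress factor CHOP, by 982 bases. DDIT3 was at 8.15 and 9.47 CPM against 6.87 and 6.76 CPM and did not pass (edgeR adjusted p = 0.065). ARHGAP9 held 1 to 4 counts per library, DDIT3 99 to 143 and MARS1 2638 to 4628.

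IARS1, the isoleucyl enzyme, held the most counts of all 35 genes, at 587 and 625 CPM in empty vector cells and 389 and 378 CPM in FOXD2 cells (log2 fold change -0.66, SE 0.05). TARS1, the threonyl enzyme, was at 354 and 378 CPM against 241 and 232 CPM (-0.63, SE 0.06). By mean TPM it was the second most abundant member in both groups (264 and 179 TPM). Each of the 9 genes from AARS1 to TARS1 had an edgeR adjusted p of at most 2.7e-13.

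Besides KARS1, 5 further cytosolic genes fell by less than 1.5-fold. They were SARS1 (seryl, log2 fold change -0.48), RARS1 (arginyl, -0.43), FARSB (the β subunit of the phenylalanyl enzyme, -0.40), LARS1 (leucyl, -0.35) and NARS1 (asparaginyl, -0.34), with edgeR adjusted p of at most 2.4e-06 and no overlap between groups. NARS1 is the only one of these 5 with the ATF4 site in its promoter, among the 4 whose promoter was searched.

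QARS1, the glutaminyl enzyme (chr3:49095932-49105135, minus strand), went the other way. It was at 189 and 193 CPM in empty vector cells and at 239.7 and 234 CPM in FOXD2 cells, so both FOXD2 libraries were above both empty vector libraries (log2 fold change 0.31, SE 0.06, edgeR adjusted p = 1.8e-05). Per length its mean went from 149.1 to 183.9 TPM, from ninth place among the 35 genes to first. In FOXD2 replicate 2 alone TARS1 stood above it (181.9 against 176.2 TPM). HARS1 (histidyl, -0.11, 95% interval -0.24 to 0.03), FARSA (the α subunit of the phenylalanyl enzyme, -0.08, -0.21 to 0.05) and VARS1 (valyl, -0.07, -0.18 to 0.04) did not pass. These intervals leave out changes of 1.5-fold. FARSA was at 169 and 174 CPM against 173 and 152 CPM, with FOXD2 replicate 1 inside the empty vector range. Its fitted log2 value was -0.18 without FOXD2 replicate 1, which passed (edgeR adjusted p = 0.018), and 0.01 without FOXD2 replicate 2. For VARS1 the sign depended on the scale, at 0.13 with TPM, since its assigned length was 3596 and 3459 bases against 3288 and 3054 bases. The α and β subunits of the phenylalanyl enzyme, which form 1 protein together, thus had fitted values of -0.08 and -0.40, a difference that was not tested.

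The 11 cytosolic genes that textbooks give as ATF4 targets (AARS1, CARS1, EPRS1, GARS1, IARS1, MARS1, NARS1, SARS1, TARS1, WARS1 and YARS1) all fell, 9 of them by at least 1.5-fold, with a median log2 fold change of -0.75. Of the other 8 cytosolic genes 4 fell (KARS1, RARS1, FARSB and LARS1), 1 rose and 3 did not pass, with a median of -0.23. The difference between these groups was not tested, and the 11 were listed with earlier results of these data known. By place in the cell, 6 of 7 members of the multisynthetase complex fell and 1, QARS1, rose (median -0.54), and 9 of 12 free enzymes fell and none rose (median -0.56), so the medians were alike. By class, 8 of 10 cytosolic class I genes fell and 1 rose, and 7 of 9 class II genes fell and none rose, with medians of -0.67 and -0.48. In these counts EPRS1 was placed in class I. All of these counts stand beside 26.4% lower and 27.2% higher of all tested genes, with 7.81% lower by at least 1.5-fold.

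**Figure D2:**
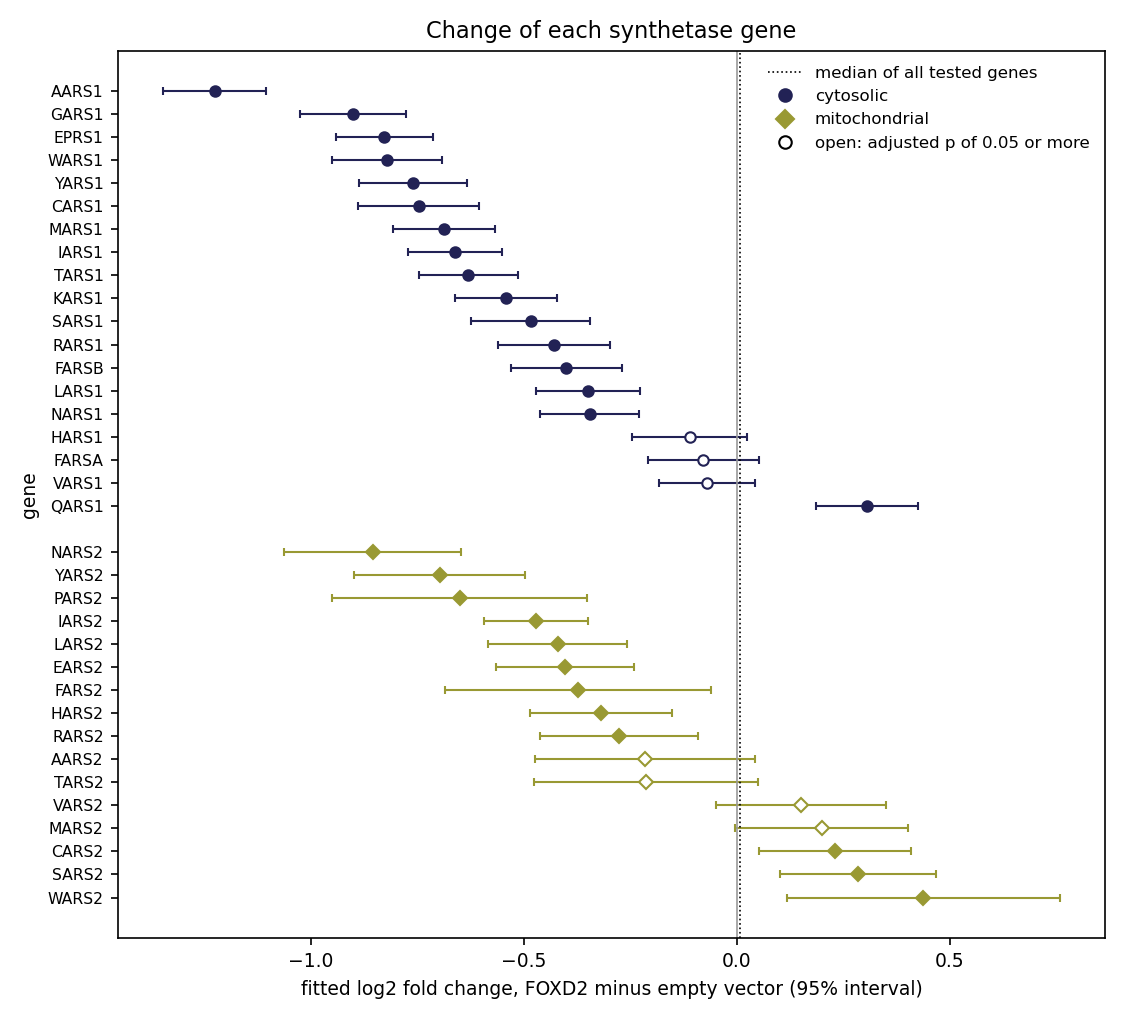
Fitted log2 fold change of each synthetase gene, FOXD2 minus empty vector, with its 95% interval from the edgeR fit. Circles are cytosolic and diamonds mitochondrial genes, open symbols did not pass an adjusted p of 0.05, and the dotted line marks the median of all tested genes. The cytosolic genes run from -1.22 (AARS1) to 0.31 (QARS1) and the mitochondrial genes from -0.85 (NARS2) to 0.44 (WARS2).

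Mitochondrial synthetase genes were less abundant and moved both ways. Their median level was 21.4 TPM in empty vector cells, against 145.1 TPM for the cytosolic genes, and the range was 4.95 TPM (WARS2) to 90.4 TPM (IARS2). Of 16 genes 9 fell, 3 rose and 4 did not pass (edgeR, adjusted p under 0.05), beside 26.4% lower and 27.2% higher of all tested genes, and the median log2 fold change was -0.30. A fall of at least 1.5-fold was found for 3 of 16, beside 7.81% of all tested genes. With DESeq2, and with edgeR without empty vector replicate 1, none of the 3 rises passed, and with limma on log2(TPM + 1) 1 did.

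**Figure D3:**
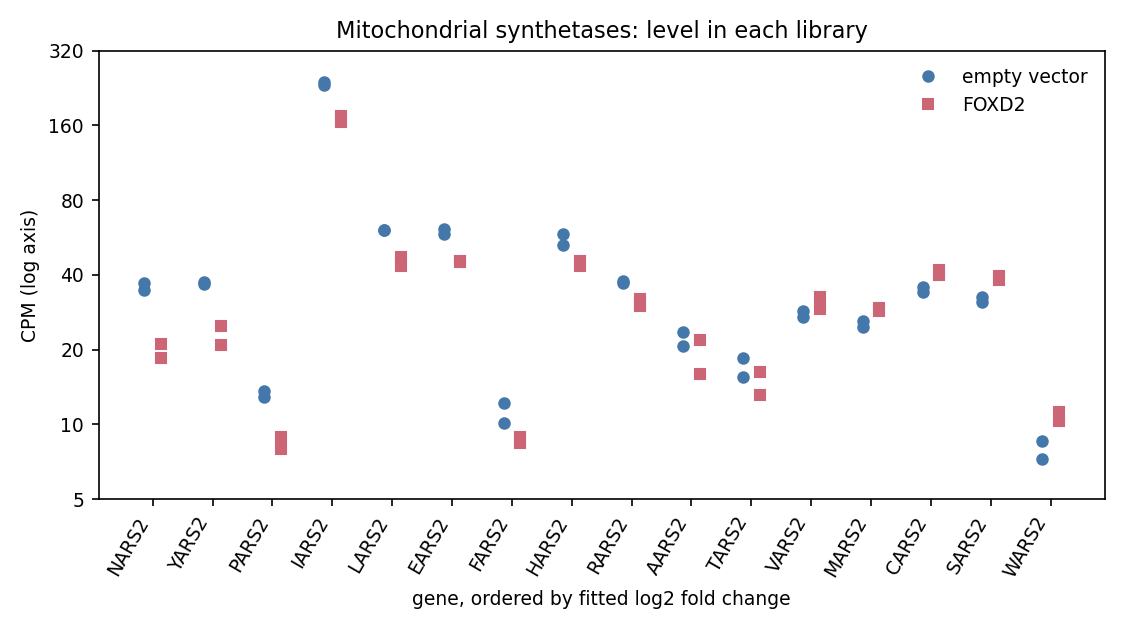
Level of each mitochondrial synthetase gene in CPM (log axis) in every library, drawn as for the cytosolic genes. The groups are apart from NARS2 to RARS2, with FOXD2 below, overlap for AARS2 and TARS2, and are apart from VARS2 to WARS2 with FOXD2 above.

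NARS2, the mitochondrial asparaginyl enzyme (chr11:78435961-78574874, minus strand), fell most. It was at 37.0 and 34.7 CPM with empty vector and at 21.1 and 18.4 CPM with FOXD2, with no overlap (log2 fold change -0.85, SE 0.10, edgeR adjusted p = 4.5e-10). YARS2, the tyrosyl enzyme and the single mitochondrial gene with the ATF4 site in its promoter, was at 36.7 and 37.6 CPM against 24.8 and 21.0 CPM (-0.70, SE 0.10, adjusted p = 4.1e-08 with edgeR). PARS2, the prolyl enzyme, was at 13.7 and 12.9 CPM against 8.87 and 7.99 CPM (-0.65, SE 0.15, adjusted p = 0.00022 with edgeR). Without FOXD2 replicate 2 the values of YARS2 and PARS2 (-0.58 each) were just short of 1.5-fold, so that 1 of 16 genes reached that size.

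IARS2, the isoleucyl enzyme, was the most abundant mitochondrial gene, at 239.6 and 234 CPM against 166 and 175 CPM (log2 fold change -0.47, SE 0.06). LARS2 (leucyl, -0.42) and EARS2 (glutamyl, -0.40), which also supplies the glutamyl-tRNA from which mitochondria make glutaminyl-tRNA, fell as well, with edgeR adjusted p of at most 3.0e-05. These 3 and the 3 with larger falls kept their call under all 13 alternative settings. The other 3 falls did not. HARS2 (histidyl, -0.32, edgeR adjusted p = 0.0010) was at an adjusted p of 0.055 without empty vector replicate 1. RARS2 (arginyl, -0.28, edgeR adjusted p = 0.0099) did not pass without empty vector replicate 2 (0.077) or FOXD2 replicate 2 (0.058), nor with DESeq2 (0.10). FARS2 (phenylalanyl, -0.37, edgeR adjusted p = 0.039), at 10.2 and 12.2 CPM against 8.87 and 8.40 CPM, did not pass under 8 of 13 settings, with empty vector replicate 2 (0.37) or FOXD2 replicate 2 (0.11) left out among them.

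WARS2, the mitochondrial tryptophanyl enzyme (chr1:119031216-119140671, minus strand), rose most. It was at 7.22 and 8.61 CPM in empty vector cells and at 11.2 and 10.3 CPM in FOXD2 cells (log2 fold change 0.44, SE 0.16, edgeR adjusted p = 0.018), and it did not pass without empty vector replicate 1 (0.21) or FOXD2 replicate 1 (0.096). SARS2, the seryl enzyme, was at 31.3 and 32.7 CPM against 38.3 and 39.8 CPM (0.29, SE 0.09, edgeR adjusted p = 0.0068) and did not pass without empty vector replicate 1 (0.10). CARS2, the cysteinyl enzyme, was at 34.0 and 35.7 CPM against 40.02 and 41.9 CPM (0.23, SE 0.09, edgeR adjusted p = 0.026). It did not pass without empty vector replicate 1 (0.21), empty vector replicate 2 (0.081) or FOXD2 replicate 2 (0.10). The groups were separate for all 3 genes.

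MARS2 (methionyl, 0.20, 95% interval -0.0028 to 0.40), VARS2 (valyl, 0.15, -0.05 to 0.35), TARS2 (threonyl, -0.21, -0.48 to 0.05) and AARS2 (alanyl, -0.21, -0.47 to 0.04) did not pass. AARS2 was at 20.6 and 23.5 CPM against 22.0 and 15.99 CPM, and its value was -0.47 without FOXD2 replicate 1 (edgeR adjusted p = 0.0018). TARS2 was at 15.5 and 18.5 CPM against 13.2 and 16.3 CPM, and its value was -0.37 without FOXD2 replicate 2 (edgeR adjusted p = 0.029). For both, replicates of 1 group differed as much as the groups did.

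The partners for the same amino acid were set side by side, as 17 pairs of a cytosolic and a mitochondrial gene, with EPRS1 and FARS2 in 2 pairs each. In 8 pairs both genes fell, in 3 the cytosolic gene fell and the mitochondrial gene rose, and in 3 the cytosolic gene fell and the other did not pass. In 2 pairs the mitochondrial gene alone fell (HARS2 beside HARS1, and FARS2 beside FARSA), and for valine neither passed. Beside these counts, 26.4% of all tested genes were lower and 27.2% higher. For tryptophan the ratio of WARS1 to WARS2 in TPM was 30.9 and 36.5 in empty vector cells and 16.1 and 15.9 in FOXD2 cells. For alanine it was 21.5 and 19.0 against 8.79 and 11.4, for serine 4.92 and 4.71 against 2.71 and 2.23, and for cysteine 2.07 and 1.99 against 1.21 and 1.11. For asparagine the ratio went the other way, 4.94 and 5.71 against 7.16 and 8.47. In each of these 5 pairs the ratios of the groups did not overlap. They were also apart, and lower with FOXD2, for methionine, threonine, glutamate, proline and tyrosine. For leucine, histidine and FARSA with FARS2 they were apart and higher with FOXD2, as for asparagine. The ratios overlapped for isoleucine, arginine, valine and FARSB with FARS2. Among single genes, 37.2% of all tested were apart with FOXD2 lower and 38.9% with FOXD2 higher. A ratio that lies apart thus carries little weight here. The share for ratios of other gene pairs was not computed.

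**Figure D4:**
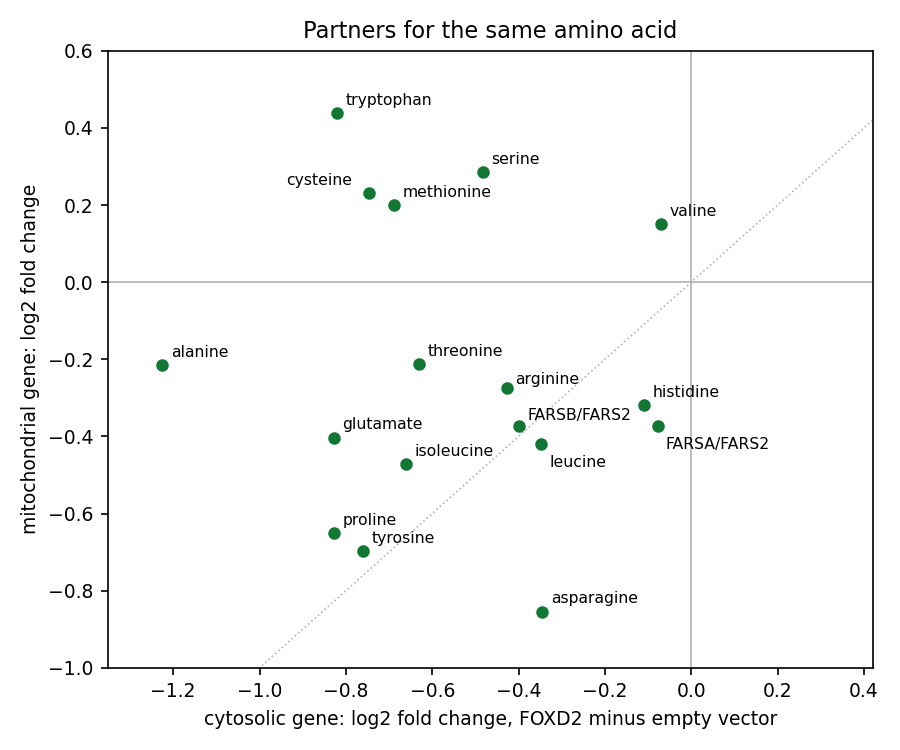
Log2 fold change of the mitochondrial gene against that of the cytosolic gene for the same amino acid, each point being 1 of 17 pairs. The dotted line marks equal change. Tryptophan, serine, cysteine and methionine lie at the upper left, with a lower cytosolic and a positive mitochondrial value. Asparagine lies below the line, as do leucine, histidine and FARSA/FARS2.

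HARS1 and HARS2 are neighbours that point away from each other, with start sites at 140691370 and 140691455 of chromosome 5, 84 bases apart in between, and their gene models overlap by 437 bases. HARS1 was at 114 and 119 CPM against 108 and 108 CPM, HARS2 at 58.2 and 53.0 CPM against 45.6 and 43.5 CPM, so the pair had fitted values of -0.11 and -0.32. SARS2 overlaps MRPS12, a gene of the mitochondrial ribosome, by 349 bases on the opposite strand. MRPS12 was at 57.6 and 56.0 CPM against 58.1 and 48.7 CPM and did not pass (-0.09). On its own strand SARS2 overlaps the protein-coding AC011455.2 by 15493 bases, and that gene is listed at 0 counts in all libraries. VARS2 overlaps GTF2H4 on the same strand by 5865 bases, with 401 to 506 counts for VARS2 and 430.2 to 542.6 for GTF2H4, and HARS2 overlaps ZMAT2 by 639 bases. For these 3 genes the strand cannot separate the reads, so their values are less certain. Genes that are not protein-coding overlap other members on the same strand. Among them are AC011997.1 in MARS2 (3019 bases) and the pseudogenes RBMX2P3 (957 bases) and RPS3AP12 (753 bases) in WARS2. Counts of these noncoding neighbours were not looked up. YARS2 overlaps DNM1L on the opposite strand by 18161 bases, and DNM1L held 1577 and 1710 counts with empty vector and 1270 and 1237 with FOXD2. In all, 21 of the 35 genes overlap a gene on the opposite strand, and as the strand setting of the counting is not given in the sources used here, reads of such neighbours may not be separated.

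The site shown above was then set beside the changes. All 8 genes that held it fell, with a median log2 fold change of -0.69. Of the 22 genes searched without it 14 fell and 4 rose, with a median of -0.39, and these include EPRS1, WARS1 and SARS1. The sets differ in compartment, as 7 of the 8 genes with the site are cytosolic and 13 of the 22 without it mitochondrial. Among cytosolic genes alone the medians were -0.69 for the 7 with the site and -0.43 for the 9 without it, of which 6 fell and 1 rose. These differences were not tested. Over all tested genes with a promoter sequence, 104 of 280 with the site (37.1%) were lower and 66 (23.6%) higher. The 280 include the 8 synthetases. Of the 10492 without the site 28.3% were lower and 26.7% higher. The medians were -0.13 and -0.0068. A match to these letters is a description and shows no binding, and a gene without a match has only been searched in this window.

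Other genes of the ATF4 pathway were lower with them. Of 12 tested genes for amino acid synthesis known as ATF4 targets, 10 fell and 1 rose (median log2 fold change -1.09), as against 26.4% lower and 27.2% higher of all tested genes. MTHFD2, of mitochondrial folate metabolism, went from 526.8 ± 20.6 to 215 ± 3.72 CPM (-1.29, SE 0.06), and GPT2, an alanine transaminase, from 68.8 ± 5.22 to 29.5 ± 1.85 CPM (-1.22, SE 0.09). PHGDH (-2.45), ASNS (-1.95), which makes asparagine, PSAT1 (-1.70) and PCK2 (-1.40) fell most and, like MTHFD2, fell further than any synthetase. CTH, which makes cysteine, rose (0.44, edgeR adjusted p = 0.0096), but not with empty vector replicate 1, empty vector replicate 2 or FOXD2 replicate 2 left out, where 0 genes of the list rose.

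Of 9 tested amino acid transporters 6 fell, each by at least 1.5-fold, and 1 rose (median -0.75). Of all tested genes 26.4% were lower and 27.2% higher, and 7.81% and 14.9% were so by at least 1.5-fold. SLC7A5, which imports large neutral amino acids, went from 1131 ± 81.0 to 371.8 ± 30.1 CPM (-1.60, SE 0.06), SLC1A4 fell by 1.29 on the log2 scale, and SLC3A2, the partner chain of SLC7A5, by 0.88. SLC6A9, a glycine transporter, rose from 7.36 ± 1.21 to 29.97 ± 0.417 CPM (2.02, SE 0.13). Of 13 tested stress factors of the pathway 7 fell and 2 rose (median -0.47), beside the same 26.4% lower and 27.2% higher. ATF4 itself went from 417.9 ± 38.3 to 289.4 ± 15.6 CPM (-0.53, SE 0.06, edgeR adjusted p = 4.7e-10), although its activity is known to be set mainly by translation. CHAC1 (-1.71), the pseudokinase TRIB3 (-1.20), the secreted factor STC2 (-1.10) and the translation inhibitor EIF4EBP1 (-0.92) fell most, and PPP1R15A, which directs eIF2 dephosphorylation, rose (0.72).

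A list of 14 genes held those for eIF2, its kinases and its exchange factor eIF2B, together with GCN1 and PPP1R15B. Of these 14, 8 fell and 1 rose (median -0.16), beside 26.4% lower and 27.2% higher of all tested genes. EIF2S2 (-0.71) and EIF2AK4 (-0.61), the kinase that senses uncharged tRNA, fell most, followed by EIF2B3 (-0.37) and EIF2S3 (-0.32). Fewer of the 14 fell without empty vector replicate 1, where fewer of all tested genes were lower as well. EIF2AK2 was the gene that rose (0.25, edgeR adjusted p = 0.044), and the number that rose was 0 without empty vector replicate 2 and 2 without FOXD2 replicate 1.

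Of 18 genes for tRNA export, processing and editing 8 fell and none rose (median -0.20), beside 26.4% lower and 27.2% higher of all tested genes. XPOT, the nuclear export factor of tRNA and a known ATF4 target, went from 257.3 ± 9.10 to 146.2 ± 4.55 CPM (-0.82, SE 0.06), and DTD1, which removes D-amino acids from tRNA, fell by 0.69 on the log2 scale, RPP30 of RNase P by 0.49 and POP1 by 0.47. Fewer of the 18 fell without empty vector replicate 2 or FOXD2 replicate 2, where fewer of all tested genes were lower as well. The scaffolds of the multisynthetase complex differed. EEF1E1 went from 68.7 ± 2.74 to 37.3 ± 1.81 CPM (-0.88, SE 0.08), while AIMP1 (80.9 ± 0.445 against 82.4 ± 1.25 CPM, 0.03) and AIMP2 (52.9 ± 5.93 against 52.5 ± 7.45 CPM, -0.01) did not pass. Of 5 cytosolic elongation factors, which take charged tRNA to the ribosome or move it on, EEF1G (-0.19) and EEF1B2 (-0.18) fell, EEF1D rose (0.20), and EEF1A1 and EEF2 did not pass (median -0.07), which is near the 26.4% lower and 27.2% higher of all tested genes. None rose without empty vector replicate 1 or FOXD2 replicate 1, and 1 fell without empty vector replicate 2.

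Of 17 mitochondrial translation factors 8 fell and 2 rose (median -0.21), beside 26.4% lower and 27.2% higher of all tested genes, with MTRFR, a ribosome rescue factor (-0.58), LRPPRC, which stabilises mitochondrial mRNAs (-0.52), the initiation factor MTIF2 (-0.52) and the elongation factor TUFM (-0.44) among those that fell. GATC, a subunit of the enzyme that makes mitochondrial glutaminyl-tRNA, rose (0.34), as did GFM1 (0.30). Of 78 genes for mitochondrial ribosomal proteins 52 fell and 3 rose, beside 26.4% lower and 27.2% higher of all tested genes. The median of these 78, -0.25, was close to that of the mitochondrial synthetases, -0.30. MRPL11 (-0.93), MRPS10 (-0.70), MRPL21 (-0.70) and MRPL1 (-0.62) fell most. Without empty vector replicate 1 or 2, fewer of the 78 fell and fewer rose, as was so for all tested genes.

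**Figure D5:**
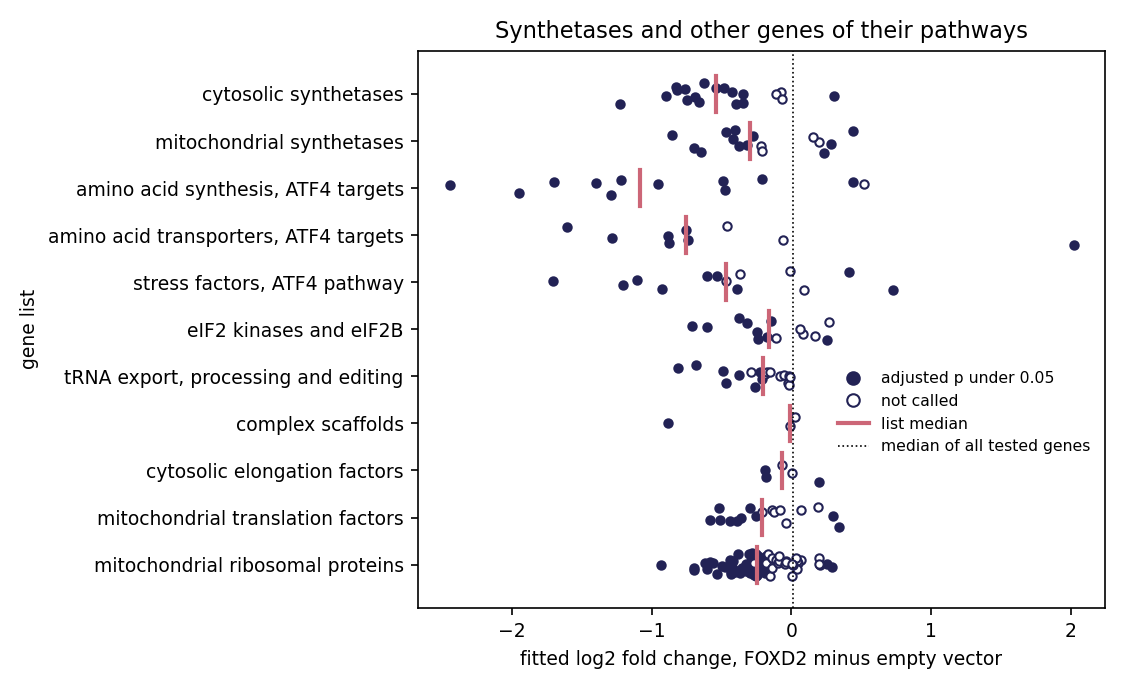
Fitted log2 fold change of every tested gene in the synthetase groups and in the lists of related genes, each point being a gene. Filled points passed an adjusted p of 0.05, bars mark the median of each list and the dotted line that of all tested genes. Genes for amino acid synthesis lie furthest to the left (median -1.09), followed by transporters (-0.75), cytosolic synthetases (-0.54) and stress factors (-0.47).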

How the data were processed

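The build was GRCh38 (hg38) and the tools RSEM 1.2.31 and STAR 2.7.2b, per the submitters' processing notes. The annotation release and strand setting are not given in the sources used here. The authors' tables hold, per the file headers, RSEM expected counts, TPM, transcript lengths and effective lengths (in bases) and the posterior SD of each count (another measure), which was 0 for 31 of the 35 genes and at most 1.72% of the count. The deposited FPKM values were not used. Replicates are separate samples in the labels. Whether they came from separate cultures is not stated, so p-values measure only the spread between these samples.

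Expected counts were rounded and tested in R 4.3.3 by the two-sided quasi-likelihood test of edgeR 4.0.16 (robust fit on intercept and group after filterByExpr and TMM scaling), with Benjamini-Hochberg adjustment over 14470 genes at 0.05. All 35 members passed the filter. CPM values use TMM-scaled library sizes. SE is the absolute log2 fold change divided by the square root of F, and intervals are 95%. The chi-square per degree of freedom was 2.52 between empty vector and 3.91 between FOXD2 replicates, so neither pair agreed within sampling noise. Symbols were matched for 60370 identifiers, and positions come from GENCODE 29 on GRCh38. Limma 3.58.1 and DESeq2 1.42.0 served alternatives. The fit was also run on simulated counts in which far fewer genes changed than were called here. How it performs under such wide change was not tested.

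Members and lists were chosen with earlier results of these data known. All 35 members are named. Library values are given for those changed by 1.5-fold or more, the 5 most abundant by TPM, GARS1 and KARS1, and for some others chosen after their values were seen. Of each related list up to 4 genes with the largest fold are named, with ATF4, XPOT and the 3 scaffolds and some others chosen after their values were seen. All 8 promoter sites are shown, where at most 6 had been planned. The shared start region of HARS1 and HARS2 is described without its sequence.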

Additional observations from a re-analysis of the deposited data

How the results depend on the processing

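The results were recomputed under 13 alternatives: DESeq2, limma-voom, limma on log2(TPM + 1), RLE, upper quartile or no scaling factors, no filter on low counts, a filter of 1 CPM in 2 libraries, the replicate number as a block, and each library left out. The count of 15 lower cytosolic genes was 15 to 16 with a library left out, and all 16 called cytosolic genes kept direction and call under all 13. The 9 cytosolic genes lower by at least 1.5-fold became 6 with limma on log2(TPM + 1), 8 with no scaling factors and 11 without FOXD2 replicate 1, and stayed 9 in number otherwise. Of 12 called mitochondrial genes 6 kept direction and call under all 13. With DESeq2, 2398 of all genes were higher (3929 with edgeR), 0 mitochondrial synthetases were higher (3 with edgeR) and 6 genes of the related lists were higher (11 with edgeR). With limma on log2(TPM + 1), 2424 of all genes were lower (3816 with edgeR), and 1 mitochondrial synthetase was higher and 1 lower by at least 1.5-fold. With 1 library left out, which takes the remaining library of that group to vary as the intact group does, 0 to 2 mitochondrial synthetases were higher, 1 to 3 were lower by at least 1.5-fold, and 6 to 11 genes of the related lists were higher, with 1 to 2 higher by at least 1.5-fold. FARSA ran from -0.18 without FOXD2 replicate 1 to a turned sign, 0.013, without FOXD2 replicate 2, and the sign of VARS1 turned with TPM (0.13). The cause was not tested, beside the assigned lengths given for VARS1. The median of all genes moved by at most 0.07 under any scaling.

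No pairing by replicate number was seen: the deviations of same-numbered libraries from their group means had a correlation of -0.10 across genes. With 2 libraries per group this cannot show whether the samples were paired. With the replicate block 3680 genes were higher and 3494 lower, 15 cytosolic and 8 mitochondrial synthetases were lower, and 1 and 3 were higher.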
